A study of Rattus norvegicus with 28 samples.

Results

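The genes described here are the solute carriers (Slc) of rat *Tibialis anterior* (TA) muscle, measured by RNA-seq in 28 muscles of 14 rats. A gene was included where its symbol begins with Slc and a digit in the study's supplementary gene table, and it was matched to the counts by the Ensembl identifier paired with it there. This gave 35 of 32883 genes counted, 1998 of which the table names. The table lists only genes with small p-values in the comparison of vitamin D receptor (VDR) overexpression with its control leg, so the members were selected on that comparison. Their values in it are therefore given as a description, without a test, and a solute carrier that did not pass in the study has no name here.

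All rats were male Wistar, aged 8 weeks on arrival, and all muscles underwent in vivo electrotransfer, an electric pulse that brings plasmid DNA into the muscle. Muscles were collected 10 days later after an overnight fast. In the first arm (rats 416 to 422) the right TA received a plasmid with the mouse VDR (VDR-OE) and the left TA the empty plasmid (VDR-OE control). In the second arm (rats 423 to 429) the right TA received a short hairpin RNA against the VDR (VDR-KD) and the left TA a scrambled hairpin (VDR-KD control). Each group holds 7 muscles, and every left leg is the control of a right leg of the same rat. Whole muscle was used, so a smaller number of cells of one type and less RNA per cell cannot be told apart, and the share of fibres that took up plasmid was not measured in these data.

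Solute carriers are membrane proteins that move small molecules across the cell surface or the membranes of organelles. In muscle they bring in amino acids, glucose and lactate, exchange ions, and pass metabolites in and out of mitochondria. Several amino acid carriers of the Slc7 family work as pairs, in which a light chain such as Slc7a5 (LAT1, for large neutral amino acids including leucine), Slc7a8 (LAT2) or Slc7a11 (xCT, which exchanges cystine for glutamate) carries the substrate and the heavy chain Slc3a2 (4F2hc, CD98) brings it to the cell surface. Slc7a1 (CAT1) and Slc7a3 (CAT3) carry cationic amino acids without a heavy chain, and Slc6a9 (GlyT1) takes up glycine with sodium. Many of these genes are known targets of ATF4, a transcription factor of the amino acid stress response, which acts through an element with the core TGATGNAA.

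By substrate, 11 members carry amino acids, 5 ions, 3 monocarboxylates and 3 nucleosides or nucleobases, 4 are mitochondrial carriers, 1 is of the glucose transporter family (Slc2a10), and 6 are known or presumed carriers of lipids, choline or other organic ions. Slc35e1 has no assigned substrate. Slc9a3r1 matches by its symbol only, since it encodes NHERF1, a scaffold protein that is not a transporter. Slc17a3 had 1 to 94 reads per muscle and did not pass the filter on low counts in either arm, so 34 members were fitted.

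Promoter sequences of RefSeq (rat build GRCr8) were found for 28 of the 35 members, in 33 windows of 300 bases around a transcription start. The 250 bases before the start are shown for the heavy chain Slc3a2 (the first of its starts listed), its partner Slc7a5 and the cationic carrier Slc7a1, because the results below turn most on the heavy chain and the carriers that lay lower with it in VDR-OE legs. Capitals mark a match to TGATGNAA. The windows are chr1:215048065-215048314 on the minus strand for Slc3a2, chr19:66872413-66872662 on the minus strand for Slc7a5 and chr12:11664238-11664487 on the plus strand for Slc7a1.
Slc3a2: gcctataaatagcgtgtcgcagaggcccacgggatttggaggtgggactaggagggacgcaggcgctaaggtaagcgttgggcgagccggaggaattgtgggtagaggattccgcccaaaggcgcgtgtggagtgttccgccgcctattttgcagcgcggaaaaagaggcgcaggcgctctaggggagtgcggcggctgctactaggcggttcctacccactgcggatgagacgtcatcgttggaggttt
Slc7a5: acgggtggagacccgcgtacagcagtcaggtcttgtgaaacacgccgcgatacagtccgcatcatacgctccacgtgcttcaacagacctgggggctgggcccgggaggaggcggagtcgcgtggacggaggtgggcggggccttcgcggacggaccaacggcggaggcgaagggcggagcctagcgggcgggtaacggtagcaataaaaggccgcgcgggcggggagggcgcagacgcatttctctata
Slc7a1: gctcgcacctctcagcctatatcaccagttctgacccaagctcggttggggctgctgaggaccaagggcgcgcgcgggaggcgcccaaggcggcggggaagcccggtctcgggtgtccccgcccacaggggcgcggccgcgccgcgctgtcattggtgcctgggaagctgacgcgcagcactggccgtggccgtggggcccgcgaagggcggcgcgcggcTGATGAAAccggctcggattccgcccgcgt
In Slc7a1 the match began 30 bases before the start. On either strand, TGATGNAA was present in the windows of 2 of the 28 members (Slc7a1 and Slc9a9), or 6.06% of the 33 windows, and in 3.98% of all 33469 windows of the table. The half-site AGGTCA of nuclear receptors such as the VDR was present in windows of 5 members (Slc3a2, Slc9a9, Slc16a12, Slc25a39 and Slc27a2), or 15.2% of member windows against 16.2% of all. The half-site match in Slc3a2 is not in the 250 bases shown, and its place was not recorded. These are matches of letters in short windows and carry no information on binding.

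The targeted gene was examined first. Vdr was 1.9 to 6.73 normalised CPM (reads of the gene scaled to a common library size; median 3.93) in VDR-OE control legs. In VDR-OE legs it ranged from 201 to 5930 CPM in 6 rats and was 5.45 CPM in rat 419, whose control leg held 5.74 CPM. The VDR-OE leg of rat 419 therefore goes against its label, and values of the arm are also given without this rat for the members whose fold change moved most. In the second arm Vdr was 1.39 to 8.11 CPM (median 3.41) in control legs and 1.94 to 6.53 CPM (median 2.59) in the legs labelled VDR-KD. It was lower in 4 of 7 rats, with a mean log2 ratio of -0.24 (exact paired permutation test, two-sided, p = 0.594, smallest possible p 0.0156), so a fall in Vdr RNA was not detectable in the legs labelled VDR-KD. Total counts ranged from 36684220 to 46312167 per muscle.

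In the VDR-OE arm 21 of the 35 members were higher and 14 lower in the VDR-OE leg by the mean within-rat log2 ratio. The selection on this comparison fixes that these genes differ, so the direction and size are given only as a description. Over all 14526 genes that passed the filter in this arm, 48.8% were above 0, and among the 1864 other genes of the table that passed the filter in either arm 63.2% were. For 18 members all 7 rats went one way (10.9% of all genes did so), and for 4 members (Slc1a7, Slc7a11, Slc25a1 and Slc22a17) the 7 legs of one group did not overlap the 7 of the other (1.82% of all genes). Counts over 7 rats in this arm include rat 419, whose VDR-OE leg lacked a high Vdr level. In rat 419, 20 of the 21 members with a higher mean ratio were higher in the VDR-OE leg. Of the 14 with a lower mean ratio, 0 were higher in this rat. In the other rats of the arm these counts were 13 to 21 and 0 to 3. How the members relate to the Vdr level of a leg was not tested. Solute carriers just outside the limit of the table carry no name here, and the members inside it with the smallest ratios were Slc38a10 (0.26), Slc39a7 (0.27) and Slc35e1 (-0.30). The amino acid carriers divided into a lower and a higher set. Slc3a2, Slc6a9, Slc7a1, Slc7a3, Slc7a5 and Slc7a11 were lower in the VDR-OE leg, and Slc1a3, Slc1a7, Slc7a8, Slc36a4 and Slc38a10 were higher.

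The heavy chain Slc3a2 was 95.2 to 239 CPM (median 129) in VDR-OE control legs and 72.1 to 102 CPM (median 83.9) in VDR-OE legs. It was lower in 7 of 7 rats, with a mean log2 ratio of -0.71 ± 0.37 (SD, n = 7), and the groups overlapped because the control legs of rats 417 and 419 lay among the VDR-OE legs. Its light chain Slc7a5 was 14.2 to 75.8 CPM (median 37.8) in the control legs against 7.28 to 20.2 CPM (median 12.1). The mean log2 ratio of Slc7a5 was -1.38 ± 0.96 and 6 of 7 rats were lower, with rat 422 as the exception. Slc7a11, the cystine carrier, was 1.21 to 4.04 CPM (median 1.63) in the control legs and 0.0646 to 0.727 CPM (median 0.531) in VDR-OE legs, where rat 419 had 3 reads. The mean log2 ratio of Slc7a11 was -2.30 ± 1.10, lower in 7 of 7 rats. The other light chain, Slc7a8, went the other way from the heavy chain, at 13.5 to 25.6 CPM (median 18.8) in control and 20.8 to 39.1 CPM (median 29.6) in VDR-OE legs, a mean log2 ratio of 0.60 ± 0.52 with 6 of 7 rats higher.

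Among carriers that need no heavy chain, the cationic carrier Slc7a1 was 8.05 to 35.7 CPM (median 16.8) in control legs and 6.42 to 11.7 CPM (median 9.86) in VDR-OE legs, with a mean log2 ratio of -0.93 ± 0.93 and 6 of 7 rats lower. Slc7a3 was 0.999 to 6.19 CPM (median 3.03) and 0.0646 to 1.48 CPM (median 0.505), with a mean log2 ratio of -2.30 ± 1.48 and 6 of 7 rats lower. The glycine carrier Slc6a9 was 3.1 to 14.9 CPM (median 5.94) and 1.92 to 4.99 CPM (median 2.89), lower in 7 of 7 rats with a mean log2 ratio of -1.10 ± 0.70. For all 6 lower genes the highest control legs were those of rats 416 and 420, and the control legs of rats 417, 419 and 422 had the lowest values for each of them except Slc3a2. For Slc3a2 the control legs of rats 417, 418 and 419 were lowest. The median log2 ratio of these 6 genes was -2.70 in rat 416, -1.75 in rat 420, -0.47 in rat 417 and -0.22 in rat 422. Without rat 419 the fitted log2 fold change of Slc7a11 went from -2.20 to -2.0 and that of Slc7a3 from -2.22 to -2.05, while that of Slc7a5 was -1.38 with and without it.

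The amino acid carriers that were higher included the glutamate and aspartate carrier Slc1a3 (GLAST), at 2.07 to 4.11 CPM (median 2.15) in control and 3.77 to 8.24 CPM (median 5.33) in VDR-OE legs. Only the control leg of rat 420 exceeded the lowest VDR-OE leg, and the mean log2 ratio was 1.10 ± 0.47, higher in 7 of 7 rats. Slc1a7 (EAAT5), another glutamate carrier, was 0.109 to 0.318 CPM (median 0.242) and 0.387 to 0.551 CPM (median 0.437), with a mean log2 ratio of 1.06 ± 0.60. It had 4 to 27 reads per muscle, so its separation rests on few reads. Slc36a4 (PAT4) was 2.25 to 3.56 CPM (median 2.57) against 2.95 to 5.34 CPM (median 3.84). Its mean log2 ratio was 0.55 ± 0.34, higher in 7 of 7 rats. Slc38a10 was 42.3 to 51.4 CPM (median 45.1) against 47.8 to 61.6 CPM (median 53.2), with a mean log2 ratio of 0.26 ± 0.14 in 7 of 7 rats.

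**Figure D1:**
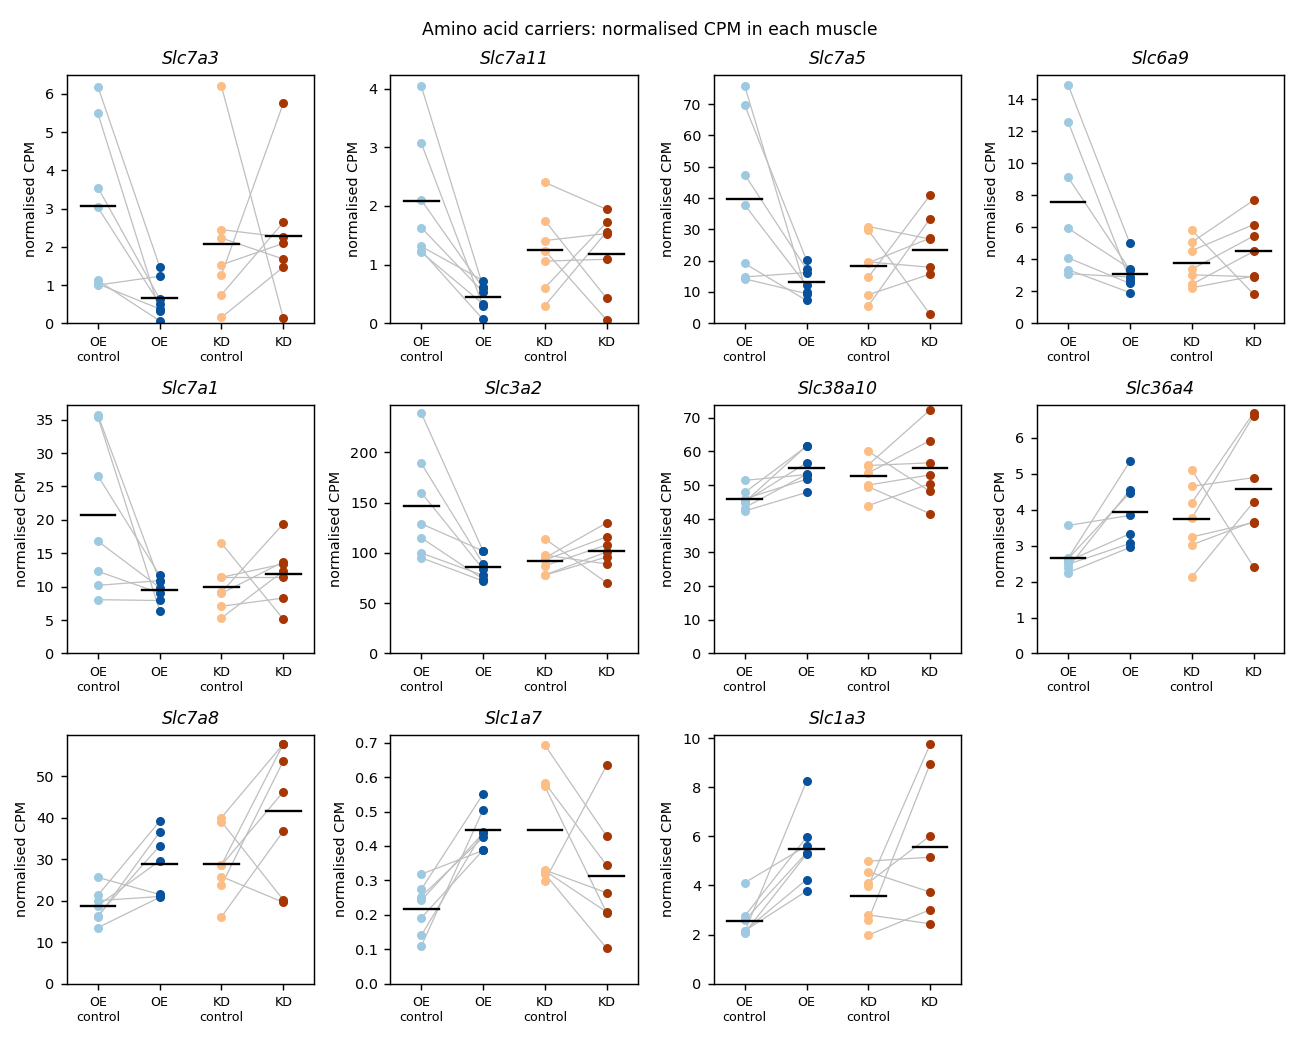
Normalised CPM (linear axis from 0) of the 11 amino acid carriers in every muscle, by group; grey lines join the legs of a rat and black bars are group means. The 6 genes from Slc7a3 to Slc3a2 have their highest VDR-OE control legs well above every VDR-OE leg, and both groups of the second arm overlap for all 11.

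Outside the amino acid carriers most members were higher in the VDR-OE leg. The single glucose family member, Slc2a10 (GLUT10), was 0.76 to 2.33 CPM (median 1.64) in control and 1.23 to 3.36 CPM (median 2.38) in VDR-OE legs, a mean log2 ratio of 0.66 ± 0.46 with 7 of 7 rats higher. Of the monocarboxylate carriers, Slc16a1 (MCT1, which carries lactate and pyruvate) was lower in 7 of 7 rats, at 89.2 to 164 CPM (median 120) against 56.6 to 98 CPM (median 78.2) and a mean log2 ratio of -0.63 ± 0.43. Slc16a7 (MCT2) went the other way with 1.01 ± 0.83 in 6 of 7 rats, and Slc16a12, a creatine carrier, with 0.44 ± 0.33 in 6 of 7 rats.

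Among ion carriers, Slc39a7 (ZIP7, which releases zinc from the endoplasmic reticulum) was 30.5 to 40.9 CPM (median 37.5) in control and 37.3 to 53.2 CPM (median 43.6) in VDR-OE legs, a mean log2 ratio of 0.27 ± 0.16 with 7 of 7 rats higher. Slc8b1 (NCLX, the mitochondrial sodium and calcium exchanger) had a mean log2 ratio of 0.66 ± 0.58, and Slc9a9 (NHE9, an endosomal sodium and proton exchanger) one of 0.89 ± 0.56. The bicarbonate carrier Slc4a4 and the zinc carrier Slc30a2 were lower in 7 of 7 rats, at -0.44 ± 0.20 and -0.57 ± 0.24.

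The mitochondrial carriers divided evenly. Slc25a39, which brings glutathione into mitochondria, was 61.5 to 97 CPM (median 75.6) in control and 41.6 to 67 CPM (median 52.6) in VDR-OE legs, lower in 7 of 7 rats with a mean log2 ratio of -0.46 ± 0.21. Slc25a1, which exports citrate, was 2.04 to 4.21 CPM (median 3.38) in control legs and 4.93 to 5.88 CPM (median 5.16) in VDR-OE legs, without overlap and with a mean log2 ratio of 0.69 ± 0.35. The dicarboxylate carrier Slc25a10 had a mean log2 ratio of 0.44 ± 0.40, and Slc25a27 (UCP4) one of -0.62 ± 0.52, each in 6 of 7 rats.

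Of the nucleoside carriers, the lysosomal Slc29a3 (ENT3) was 4.65 to 17.3 CPM (median 9.32) in control and 11.8 to 22.6 CPM (median 15.7) in VDR-OE legs, a mean log2 ratio of 0.81 ± 0.80 with 6 of 7 rats higher. Slc43a3, a purine base carrier, had one of 0.66 ± 0.65, and Slc28a1 (CNT1) was lower in 7 of 7 rats at -0.79 ± 0.59. Among carriers of lipids and organic ions, the choline carrier Slc44a1 was 29.8 to 33.6 CPM (median 31.5) in control and 27.6 to 51 CPM (median 39.9) in VDR-OE legs. Its mean log2 ratio was 0.32 ± 0.27, and the 7 control legs lay within the range of the VDR-OE legs. Slc22a17, the lipocalin receptor, was 8.2 to 10.1 CPM (median 8.93) against 10.1 to 19.5 CPM (median 10.8), without overlap, with rat 419 highest and a mean log2 ratio of 0.40 ± 0.26. The groups of Slc22a17 nearly touched, at log2 CPM 3.336 in the control leg of rat 419 and 3.337 in the VDR-OE leg of rat 416. Slc22a18 and Slc10a7 had mean log2 ratios of 0.43 ± 0.35 and 0.53 ± 0.48, each higher in 6 of 7 rats. Slc27a2, a fatty acid carrier and acyl-CoA synthetase, had 0 to 154 reads per muscle, and its fitted log2 fold change of 1.66 became 1.96 without rat 419. Slc17a3 was 0.121 to 2.13 CPM in control and 0.0215 to 0.375 CPM in VDR-OE legs. The unassigned Slc35e1 was lower in 6 of 7 rats at -0.30 ± 0.19, and the scaffold gene Slc9a3r1 was higher in 7 of 7 rats at 0.57 ± 0.43.

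**Figure D2:**
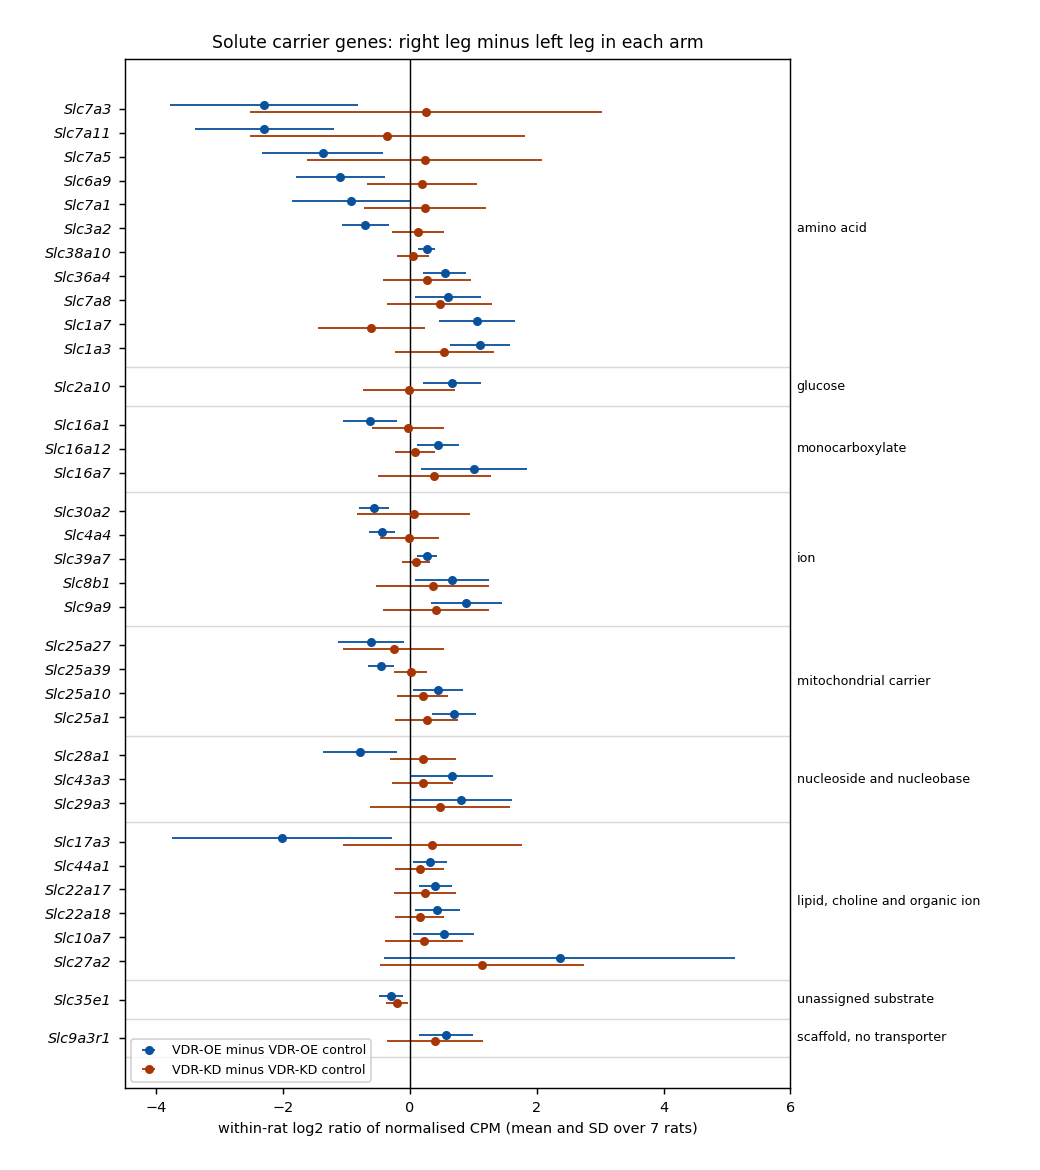
Mean within-rat log2 ratio of normalised CPM (right leg minus left leg) with SD over 7 rats for each of the 35 members, grouped by substrate class, in the VDR-OE arm (blue, the comparison that chose the members) and the VDR-KD arm (brown). The blue points run from -2.30 to 2.36, and the brown bars cross 0 for every member except Slc35e1.

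The VDR-KD arm was not used to choose the members, so the members were tested there. No member passed the test (edgeR quasi-likelihood test with the rat as a block, Benjamini-Hochberg adjustment over 14652 genes, lowest adjusted p of a member 0.803). No gene of the arm did either (0% of genes), nor with edgeR's likelihood ratio test or DESeq2. At an unadjusted p under 0.05 there were 395 genes (2.7%) by the quasi-likelihood test, 401 by the likelihood ratio test and 625 by DESeq2. None of the 395 was a member, and DESeq2 placed 2 members there, Slc27a2 and Slc35e1. A knockdown of the VDR was not detectable in these legs, and the absence of calls does not show that the members were alike in both legs.

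The lowest unadjusted p of a member was 0.0562, for Slc35e1, which had a log2 fold change of -0.20 ± 0.09 (SE) and was lower in 7 of 7 rats. Its legs were 11.1 to 15.4 CPM (median 14.3) in VDR-KD control and 10.5 to 13.9 CPM (median 11.1) in VDR-KD. It was the only member that went one way in all 7 rats (0.88% of all genes did), and no member had groups without overlap (0.0137% of all genes). By the mean ratio 28 of the 35 members were higher in the VDR-KD leg, or 27 of 34 fitted, against 50.4% of all genes and 64.1% of the 1864 other named genes. Neither share was tested.

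The amino acid carriers differed in how closely the VDR-KD difference was measured. The heavy chain Slc3a2 was 77.9 to 114 CPM (median 93) in VDR-KD control and 70.4 to 130 CPM (median 101) in VDR-KD legs, with a 95% interval of the mean log2 ratio from -0.25 to 0.51. Slc7a5 was 5.58 to 30.9 CPM (median 19.3) and 2.89 to 40.9 CPM (median 26.9), with an interval from -1.48 to 1.95. Slc7a11 was 0.299 to 2.4 CPM (median 1.24) and 0.0573 to 1.94 CPM (median 1.53), with an interval from -2.37 to 1.65. All 3 genes overlapped between the groups. Slc7a3 was 0.152 to 6.2 CPM (median 1.53) and 0.143 to 5.75 CPM (median 2.09), with an interval from -2.32 to 2.82. Slc7a1 was 5.33 to 16.5 CPM (median 9.16) and 5.16 to 19.4 CPM (median 12.3), with an interval from -0.64 to 1.13. Slc6a9 was 2.22 to 5.83 CPM (median 3.38) and 1.83 to 7.69 CPM (median 4.49), with an interval from -0.61 to 0.99. In rat 423 all 6 of these genes were lower in the VDR-KD leg, with a median log2 ratio of -2.51, and its VDR-KD leg was the lowest of the group for each of them. Slc7a5 went from 29.7 to 2.89 CPM in this rat. In rat 424 their median log2 ratio was 1.35.

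Slc7a8 was 16.1 to 40 CPM (median 28.5) in VDR-KD control and 19.6 to 57.7 CPM (median 46.2) in VDR-KD legs, with an interval from -0.30 to 1.23. Slc1a3 was 1.98 to 4.99 CPM (median 3.98) and 2.44 to 9.74 CPM (median 5.15), with an interval from -0.18 to 1.26. Slc1a7 was 0.299 to 0.693 CPM (median 0.33) and 0.103 to 0.634 CPM (median 0.264), lower in 6 of 7 rats, with an interval from -1.40 to 0.18. The groups overlapped for these carriers too. Slc36a4 was 2.12 to 5.11 CPM (median 3.76) and 2.41 to 6.69 CPM (median 4.21), with an interval from -0.36 to 0.91. Slc38a10 was 43.9 to 60 CPM (median 53.6) and 41.5 to 72.3 CPM (median 53), and its interval, from -0.19 to 0.28, was the narrowest of the 11.

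Rats 423 and 425 stood apart from the other 5 of the arm over the members as a whole. In rat 423, 9 of the 35 members were higher in the VDR-KD leg, in rat 425 12, and in the other 5 rats 24 to 29. In rat 423 the members that were higher in VDR-OE had a median log2 ratio of -0.13 and in rat 425 one of -0.49, against 0.33 to 0.67 in the other rats. The median over all genes was between -0.01 and 0.01 in every rat of the arm. The normalisation itself brings this median near 0, so it does not show that the legs of a rat had the same RNA composition. A part of composition in the values of rats 423 and 425 was not tested. Without rat 423, 7 members had an unadjusted p under 0.05, all higher in VDR-KD (Slc1a3, Slc3a2, Slc6a9, Slc7a1, Slc8b1, Slc9a3r1 and Slc29a3), at adjusted p from 0.271 to 0.275 by edgeR's quasi-likelihood test. So did 18.1% of all genes. Without rat 425, 6 members did, again all higher (Slc1a3, Slc7a8, Slc9a9, Slc16a7, Slc25a10 and Slc36a4), at an adjusted p of 0.442, with 10.1% of all genes. Both rats were singled out by low members in the VDR-KD leg. Leaving either out therefore raises the members by construction, and the shared direction carries no weight. Leaving out rat 424, 426, 427 or 428 put 0 members at that level, and leaving out rat 429 put 1 there.

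**Figure D3:**
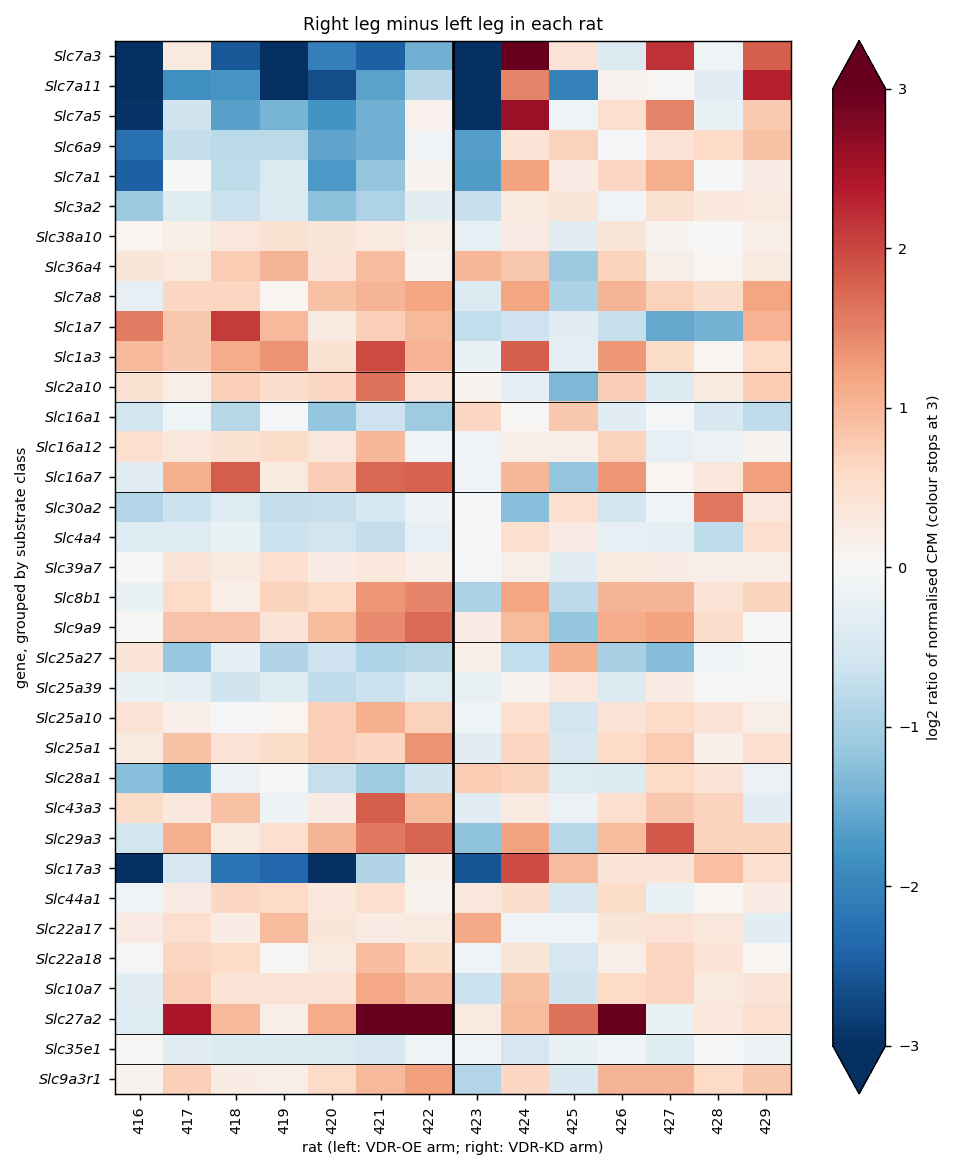
Log2 ratio of normalised CPM, right leg minus left leg, for each member (rows, grouped by substrate class) in each rat (columns; left of the thick line the VDR-OE arm, right of it the VDR-KD arm), with red higher and blue lower. Rat 423 is blue for the 6 uppermost genes, as the VDR-OE rats mostly are, and rat 425 is blue for many genes that are red in the rats beside it.

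Among the other classes in the VDR-KD arm, Slc39a7 had a 95% interval of the mean log2 ratio from -0.10 to 0.30 and Slc25a39 one from -0.23 to 0.25. Slc16a1 was 63.5 to 112 CPM (median 71.2) in VDR-KD control and 61.1 to 111 CPM (median 65.9) in VDR-KD legs, with an interval from -0.55 to 0.50. Slc44a1 had an interval from -0.20 to 0.50 and Slc22a17 one from -0.21 to 0.70. Slc29a3 was 9.01 to 22.5 CPM (median 17.9) and 9.46 to 39.9 CPM (median 30.9), with an interval from -0.55 to 1.49. Slc2a10 was 1.7 to 3.84 CPM (median 2.41) and 1.27 to 4.03 CPM (median 3.15), with an interval from -0.70 to 0.66. Slc27a2 was 0.103 to 0.796 CPM (median 0.354) and 0.201 to 2.64 CPM (median 0.699), higher in 6 of 7 rats, with an unadjusted p of 0.0812 (edgeR quasi-likelihood test, adjusted p 0.803).

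Across the 4 groups, the mean CPM of VDR-OE control was the extreme value for all 35 members, the highest of the 4 for 14 and the lowest for 21. Over all 14772 genes that passed the filter in either arm it was an extreme for 75.4%, and over the 1864 other named genes for 98.2%. The mean log2 CPM of the VDR-KD control legs, which also hold a control plasmid, was closer to VDR-OE than to VDR-OE control for 28 of the 35 members. This was so for 68.2% of all genes and 85.5% of the other named genes. Slc7a5 had a mean log2 level in the order VDR-OE control, VDR-KD, VDR-KD control and VDR-OE from high to low, and Slc3a2, Slc6a9, Slc7a1 and Slc7a3 had the same order. For each of these 5 genes the ranges of neighbouring groups in that order overlapped. The VDR-OE control values of Slc3a2 (median 129 CPM) lay above those of VDR-KD control (median 93 CPM), and the groups overlapped. The selection made VDR-OE control differ from VDR-OE, the arms hold different rats and plasmids, and arm and plasmid cannot be told apart in the comparison of the control legs.

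**Figure D4:**
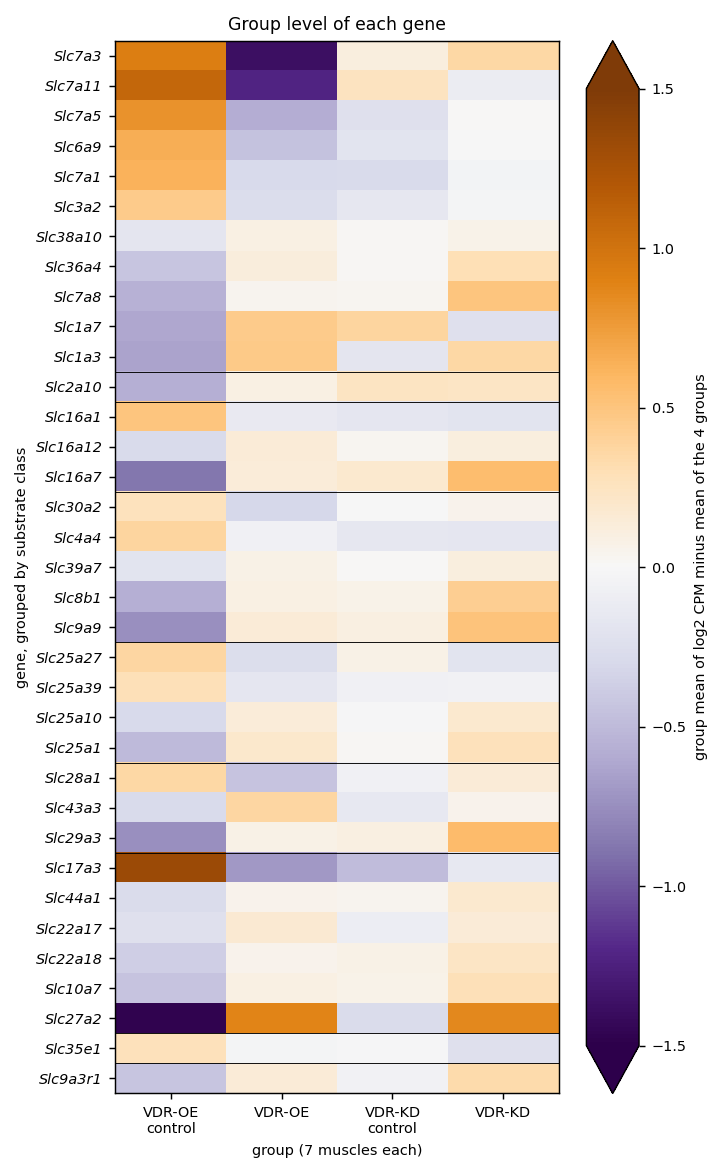
Group mean of log2 CPM of each member minus the mean of the 4 group means (colour, orange higher and purple lower; rows are genes by substrate class, columns the 4 groups of 7 muscles). The VDR-OE control column is the highest of the 4 for 14 genes and the lowest for 21.

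The heavy chain Slc3a2 was also compared with its light chains and with the carriers that need no heavy chain, across legs the selection did not use. In the 7 VDR-KD control legs log2 CPM of Slc3a2 and Slc7a5 had a Pearson r of 0.639 (exact permutation p = 0.12, adjusted p over 6 pairs 0.18) and a Spearman rho of 0.5 (exact permutation p = 0.267, adjusted 0.4). The largest r was with Slc7a3, at 0.792 (exact permutation p = 0.0407, adjusted 0.179), with rho 0.75 (exact permutation p = 0.0663, adjusted 0.329). Without the 2 legs farthest from the median of Slc3a2 these r were 0.131 and 0.344. Taking out the legs extreme in Slc3a2 narrows its range and tends to lower r by itself. The fall therefore cannot tell whether both r rest on those legs. With Slc7a8 the r was -0.0403 (exact permutation p = 0.926, adjusted 0.926; rho 0.143, exact permutation p = 0.783, adjusted 0.783). None of the 6 pairs passed the adjustment in these legs. In the 7 VDR-KD legs, which the selection did not use either, 2 of the 6 pairs passed. The r was 0.932 with Slc7a3 (exact permutation p = 0.00159, adjusted 0.00952) and 0.912 with Slc6a9 (exact permutation p = 0.00417, adjusted 0.0125), with rho 0.929 for each (exact permutation p = 0.00675, adjusted 0.0202). Without the 2 farthest legs these r were 0.75 and 0.887. With Slc7a8 the r was 0.496 in the VDR-KD legs (exact permutation p = 0.265, adjusted 0.265; rho 0.321, exact permutation p = 0.498, adjusted 0.498). With Slc7a5 it was 0.79 (exact permutation p = 0.0442, adjusted 0.0885; rho 0.429, exact permutation p = 0.354, adjusted 0.498) and -0.32 without the 2 farthest legs.

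Other genes of the amino acid stress response were looked up from a list of 24, of which the table names 12. All 12 were lower in VDR-OE (mean log2 ratios -4.93 to -0.46, median -1.34), which again is the comparison that chose them. Of the 1864 named genes outside the members, 63.2% were higher in VDR-OE. The members of this list with the highest levels were Eif4ebp1 (4E-BP1, a brake on translation), Shmt2 (a mitochondrial enzyme of serine and glycine metabolism) and Atf5 (a transcription factor related to ATF4). Atf5 was 60.9 to 203 CPM (median 101) in VDR-OE control and 33.6 to 59.3 CPM (median 47.9) in VDR-OE legs, without overlap and with a mean log2 ratio of -1.33 ± 0.42. Eif4ebp1 was 76.8 to 115 CPM (median 95.4) against 54.7 to 76.2 CPM (median 61.6). Shmt2 had a mean log2 ratio of -0.46 ± 0.26 in 7 of 7 rats. In the VDR-KD arm 0 of the 12 passed the test and 7 were higher, with a median of 0.07 and a lowest unadjusted p of 0.335 (edgeR quasi-likelihood test). The share that was higher in VDR-KD was 50.4% over all genes and 64.1% over those 1864 named genes.

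Of the partner proteins of solute carriers, only Emb (embigin, a chaperone of monocarboxylate carriers) of a list of 15 is named in the table. Its median was 2.63 CPM in VDR-OE control and 5.31 CPM in VDR-OE legs, and it was 2.93 to 13.4 CPM (median 6.74) in VDR-KD control and 4.76 to 17.2 CPM (median 12.2) in VDR-KD legs. Its VDR-KD mean log2 ratio was 0.55 ± 0.68, with an unadjusted p of 0.046 and an adjusted p of 0.803 (edgeR quasi-likelihood test).

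Summed levels of markers of other cell types are given beside these values. The 4 of 4 fibroblast markers (Pdgfra, Col1a1, Dcn and Lum) had a summed level of 584 to 2070 CPM (median 1090) in VDR-OE control, 866 to 3320 CPM (median 2070) in VDR-OE, 1210 to 3780 CPM (median 2010) in VDR-KD control and 997 to 3450 CPM (median 2190) in VDR-KD legs. The 2 of 5 macrophage markers named (Csf1r and Cd163) summed to 25.6 to 72.9 CPM (median 59.2), 59.9 to 157 CPM (median 106), 63.7 to 204 CPM (median 98.8) and 63.4 to 305 CPM (median 181) in the same order. The medians were lowest in VDR-OE control, the ranges of all groups overlapped, and none of these markers was at 0 in any muscle. The markers were named through the same table as the members, so their VDR-OE difference was selected too. None passed the test in the VDR-KD arm (lowest unadjusted p 0.334 for fibroblast and 0.17 for macrophage markers, edgeR quasi-likelihood test), and their part in the members' values was not tested. The markers of muscle fibres, endothelial cells, adipocytes and Schwann cells are not named in the table, so the tissue label was not checked with them here.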

How the data were processed

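Muscles of the 4 VDR status groups were grouped by the labels (7 each), and legs were paired by the animal identifier. The authors sequenced paired-end Illumina TruSeq libraries, aligned and counted them with Rsubread against rat genome 6.0 (Ensembl release 89), and deposited the counts unnormalised, by gene and muscle. Strand use in counting is not given in the sources used here, so reads of a gene and an overlapping antisense gene could not be separated. Total counts were 38235929 to 44919933 (VDR-OE control), 39083724 to 46312167 (VDR-OE), 38284146 to 45899121 (VDR-KD control) and 36684220 to 40958133 (VDR-KD). Legs of a group differed by more than counting noise (chi-square per degree of freedom at least 23.3).

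A gene entered the fit if at least 7 of 14 muscles had a CPM above that equal to 10 reads (0.239 and 0.251 CPM). Each arm was fitted with edgeR 4.0.16 in R 4.3.3, TMM normalisation and the rat as a block. The quasi-likelihood test was the main test, and the likelihood ratio test of the study's methods was an alternative. The scripts were tested on simulated data. Benjamini-Hochberg adjustment ran over all genes, at a threshold of 0.05. Ratios are log2 CPM with a prior count of 0.5, and 95% intervals of their mean assume a normal spread over 7 rats. DESeq2 1.42.0 was an alternative. Pairing follows the animal in the labels. Deviations from the group mean correlated between legs of a rat at a mean r of 0.248 in the VDR-OE arm and -0.107 in the VDR-KD arm. Between legs of different rats the mean r was -0.042 and 0.019. In the VDR-KD arm legs of the same rat were thus no more alike than legs of different rats, and the pairing there rests on the labels alone.

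Members and lists were chosen with earlier results of these data known. All 35 members are accounted for. Values by group are given for all amino acid carriers, for members or list genes called in the VDR-KD arm, and for up to 3 members of each other class and 3 genes of each list with the highest mean CPM. Slc27a2, Slc35e1, Slc2a10, Slc25a1, Slc17a3 and members given only by their ratio were added for completeness or chosen after their values were seen. Names come only from the supplementary gene table, whose own fold changes and p-values were not used.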

Additional observations from a re-analysis of the deposited data

Results flagged for a closer look

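Of 140 combinations of a member and a group, 11 had 1 muscle far from the other 6 of its group by Dixon's criterion, at a level that chance passes in about 5% of groups. They are values of single legs and were not explained. In the VDR-OE control group these were Slc1a3 in rat 420 (4.11 CPM, high), Slc36a4 in rat 422 (3.56 CPM, high), Slc16a12 in rat 421 (0.985 CPM, low), Slc25a27 in rat 419 (3.48 CPM, high) and Slc28a1 in rat 422 (0.304 CPM, low).

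In VDR-OE legs both were of rat 419, the leg without a high Vdr level, with Slc7a11 low (0.0646 CPM) and Slc22a17 high (19.5 CPM). In VDR-KD control legs Slc25a27 was low in rat 425 (0.563 CPM). In VDR-KD legs all 3 were low in rat 423, for Slc7a3 (0.143 CPM), Slc7a5 (2.89 CPM) and Slc17a3 (0.0287 CPM). Outlying values were looked for on the log2 scale, and the same leg can be less far from the others in CPM.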

How the results depend on the processing

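No gene and no member was called in the VDR-KD arm under any alternative that was run. Genes at an unadjusted p under 0.05 numbered 395, but 625 with DESeq2, 647 without the replicate block, 1043 in the fit of all 28 muscles and 162 to 2624 when 1 rat was left out (2624 without rat 423, 1458 without rat 425). Members at that level numbered 0, but 2 with DESeq2, 2 without the block and 2 in the fit of all 28 muscles, and 0 to 7 when 1 rat was left out. In VDR-KD in place of VDR-KD control legs, the correlation of Slc3a2 with Slc7a8 changed sign (r 0.496), and those with Slc7a3 (r 0.932, exact permutation, adjusted p 0.00952) and Slc6a9 (r 0.912, exact permutation, adjusted p 0.0125) passed (r 0.75 and 0.887 without the 2 farthest legs); the cause was not tested. The fitted log2 fold changes moved by less than 1 SD of the within-rat ratios under every alternative that could be run. That limit is wide, and leaving out 1 of 7 rats can hardly pass it, so it does not show that the values are stable. For Slc7a3 in the VDR-KD arm the fold change went from 0.53 to 1.07 without rat 423, where the SD was 2.78. In the VDR-KD arm 9 of 34 members changed sign under at least 1 alternative, and in the VDR-OE arm 0 of 34 did. Slc17a3 is near the counting limit, at 1 to 94 reads.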
